A study of Mus musculus with 8 samples.

Results

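Caspases are cysteine proteases that carry out regulated cell death, and gasdermin D is the pore-forming protein that several of them cut. The 8 genes described here were taken by symbol from the deposited table of 30266 genes: the inflammatory caspases Casp1, Casp4 and Casp12, the initiators Casp2, Casp8 and Casp9, the executioner Casp6, and Gsdmd. All 8 were present and all 8 passed the filter on low counts. RNA sequencing was done on whole liver of male Mdr2-/- mice, aged 8 weeks, collected 4 h after recombinant FGF21 (rFGF21, 1.0 mg/kg; 4 libraries) or after PBS as vehicle (4 libraries). Mdr2 (today Abcb4) moves phosphatidylcholine into bile; its loss leaves bile acids unbuffered and injures the bile ducts. Both groups carry the deletion and no wild-type liver is among the samples, so a level given here is a level in a cholestatic liver. The comparison asks which liver transcripts differ shortly after the hormone, since the study's title places its effect in hepatic FGFR4 and JNK signalling.

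The labels number the samples 1 to 4 in each group while the table's columns run to 5, so libraries are named by group and column number. Totals ran from 62756328 to 73313449 reads. The extraction text in the labels names retina, whereas the tissue label is liver: albumin (Alb) averaged 53680 ± 5547 CPM (SD, n = 4) in rFGF21 and 52270 ± 8560 CPM (SD, n = 4) in PBS libraries, and no read in any of the 8 fell on Crx or Rcvrn, which photoreceptors express (a count of 0 allows up to 3). Groups are compared in CPM, read counts scaled to a common library size by the TMM method. Genes are compared in RPKM, which divides the count by exon length as well as by the library total. Separate animals per library are not stated in the labels, and p-values then reflect only the spread among the libraries at hand.

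In a dying cell the initiators act first. Caspase-8 is activated at death receptors such as Fas and the TNF receptor, caspase-9 on the apoptosome after mitochondria release cytochrome c, and caspase-2 on the PIDDosome; executioners such as caspase-6 then cut structural proteins, lamin A among them. Inflammatory caspases serve a different end: caspase-1, recruited by inflammasome sensors, matures interleukin-1 beta and interleukin-18 and cuts gasdermin D, and the product of mouse Casp4, long known as caspase-11, binds cytosolic lipopolysaccharide directly and cuts gasdermin D itself. Caspase-12 is grouped with them by sequence and has been studied in mouse mainly at the endoplasmic reticulum. These proteases are made as inactive precursors, so transcript levels do not measure their activity.

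By edgeR, Casp4 was the 1 member that passed the adjusted threshold. It rose 2.01-fold after rFGF21. The inflammatory gene next to it, Casp12, was 1.60-fold higher in rFGF21 libraries, which just missed that threshold by edgeR and passed it by DESeq2, and Casp2 was 1.36-fold higher without passing. Casp8, Casp9, Casp6 and Gsdmd had folds between 0.928 and 1.08, and their 95% intervals lay within 0.788 to 1.23. Of the 8 members, 1 was higher and 0 were lower at an adjusted p under 0.05 (edgeR's quasi-likelihood test, Benjamini-Hochberg over 18315 genes), against 1.15% of all genes tested called higher, 1.67% called lower and 2.82% called in either direction. At an unadjusted p under 0.05, 3 members were higher and 0 lower, against 18.8% of all genes in either direction. DESeq2 called 2 higher, Casp4 and Casp12, and 0 lower, against 4.45% and 5.21% of all genes; limma-voom called Casp4. The groups did not overlap in 3 members, Casp4, Casp12 and Casp2, where 5.9% of all genes tested had every rFGF21 library above every PBS library and 6.39% the reverse, which no member showed. In whole liver, more cells of a type and more RNA per cell cannot be told apart.

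**Figure D1:**
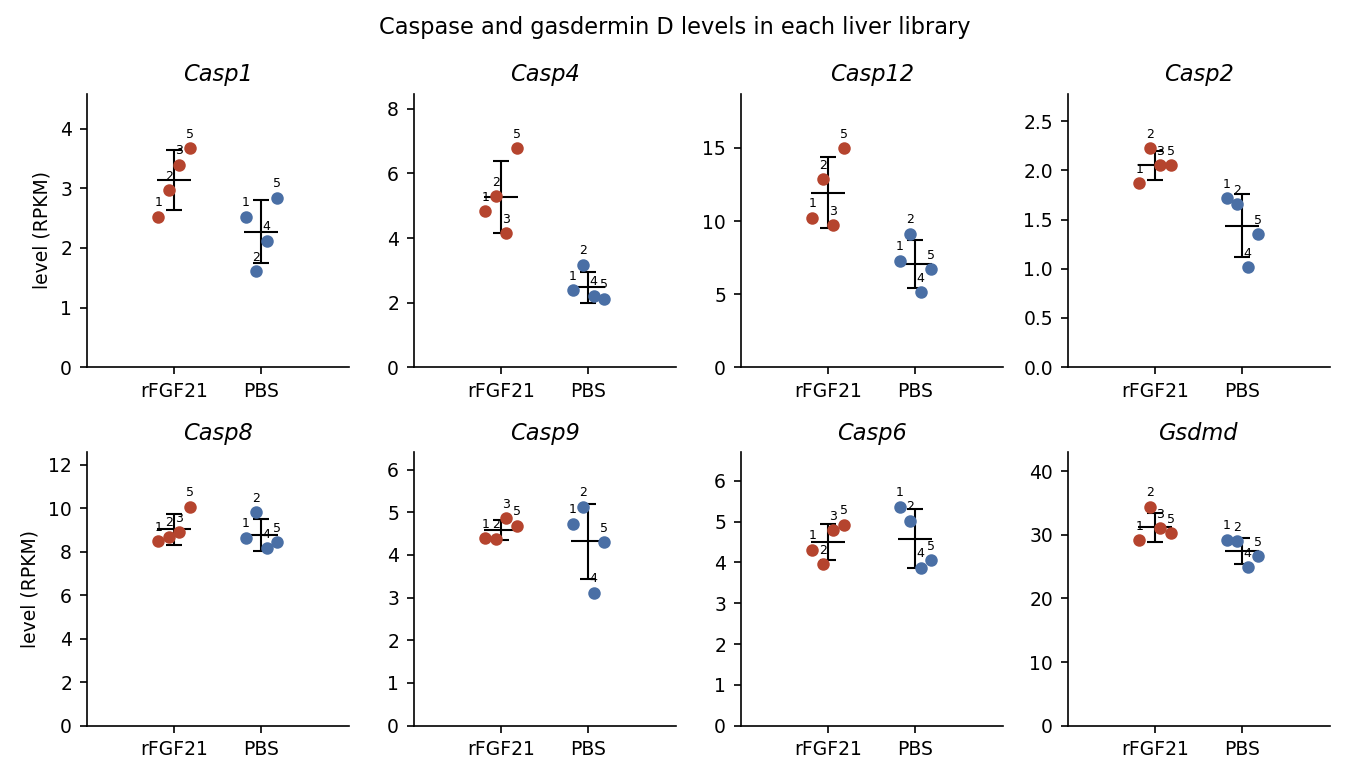
Level of each member in RPKM (vertical axis, from 0) in the 4 rFGF21 and 4 PBS libraries; numbers are column numbers, and the bar gives the mean ± SD. All 4 rFGF21 libraries lie above all 4 PBS libraries for Casp4, Casp12 and Casp2, while the groups overlap for the other members.

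Casp1, Casp4 and Casp12 lie in tandem on the plus strand of chromosome 9, in that order, within 74525 bases (GRCm38). Casp1 (ENSMUSG00000025888) spans 5298508 to 5307290, Casp4 (ENSMUSG00000033538) 5308828 to 5336783 and Casp12 (ENSMUSG00000025887) 5345430 to 5373032, as the table gives them. Only 1537 bases separate Casp1 from Casp4 and 8646 bases separate Casp4 from Casp12. The sequence before each gene is printed because Casp4, which passed the test, lies between 2 relatives that did not. Each runs 5′ to 3′ on the plus strand and stops before the first annotated base of the gene; it is RefSeq's promoter window (GRCm38.p6), cut to chr9:5308599-5308827 for Casp4, chr9:5345226-5345429 for Casp12 and chr9:5298267-5298507 for Casp1. Capitals mark matches to motifs searched on both strands: the NF-kappaB consensus, the interferon regulatory factor (IRF) core AANNGAAA and the STAT site GAS, TTCNNNGAA. The interferon-stimulated response element (ISRE: GAAA, any 2 bases, GAAA, which includes the IRF core) and the AP-1 site TGANTCA were searched too.
Casp4: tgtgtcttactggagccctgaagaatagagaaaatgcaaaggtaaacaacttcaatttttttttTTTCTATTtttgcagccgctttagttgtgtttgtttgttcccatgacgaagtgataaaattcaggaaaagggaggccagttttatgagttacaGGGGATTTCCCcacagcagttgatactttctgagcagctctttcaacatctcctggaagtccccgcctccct
Casp12: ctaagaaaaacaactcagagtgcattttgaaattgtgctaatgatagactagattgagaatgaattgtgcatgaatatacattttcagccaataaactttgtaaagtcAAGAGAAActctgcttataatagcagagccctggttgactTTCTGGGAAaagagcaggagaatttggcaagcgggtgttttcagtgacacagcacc
Casp1: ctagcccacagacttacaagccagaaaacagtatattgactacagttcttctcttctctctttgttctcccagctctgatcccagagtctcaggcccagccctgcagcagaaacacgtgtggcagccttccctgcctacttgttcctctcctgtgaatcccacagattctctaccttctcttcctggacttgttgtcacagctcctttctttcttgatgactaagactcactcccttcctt

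The Casp4 stretch holds 2 overlapping NF-kappaB matches, GGGGATTTCC and GGGATTTCCC, the first of them 93 to 84 bases before the first of RefSeq's 2 starts, and an IRF core further out. None of the other 6 members with a RefSeq window holds an NF-kappaB match in its 300 bases; of all 32851 windows of that length, 4.51% do. The Casp12 window holds a GAS match, TTCTGGGAA, at 102 to 94 bases before its start and another nearer the start, past the printed stretch; 8.3% of all windows hold at least 1. The IRF core is common, in 23.9% of windows, and was found for Casp4, Casp12 and Casp8. Neither an ISRE, present in 3.44% of windows, nor an AP-1 site, in 7.81%, was found for any of the 7. The Casp1 window held none of these motifs. A match describes the letters only, and binding was not measured here.

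**Figure D2:**
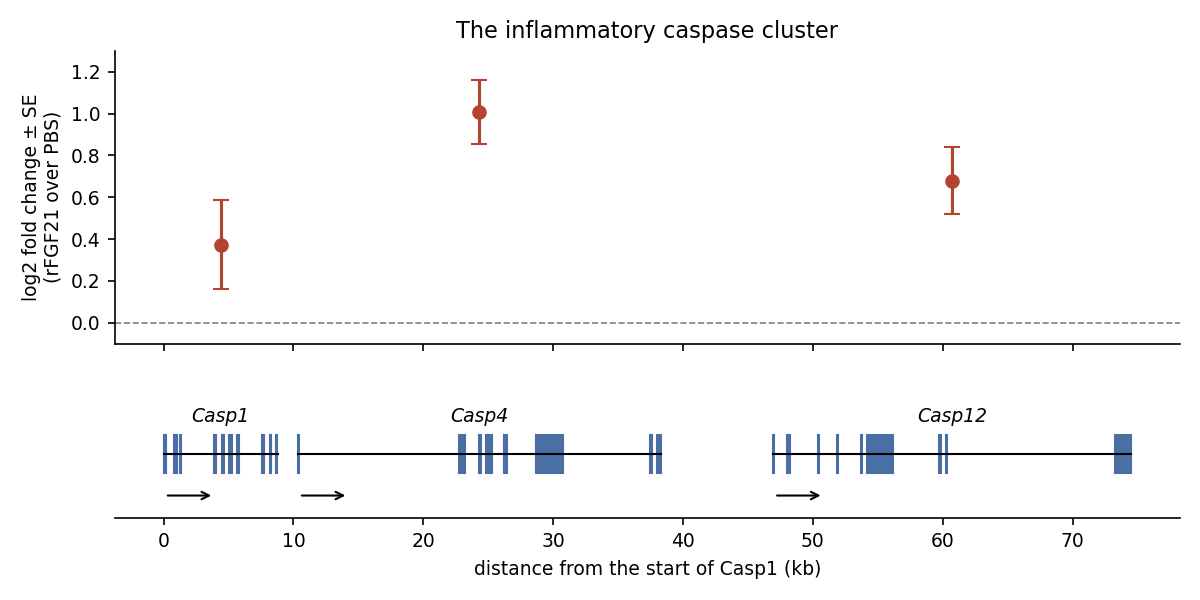
The 3 inflammatory caspase genes on chromosome 9, drawn to scale in kb from the start of Casp1, with exon blocks of all GENCODE transcripts as boxes and arrows for the direction of transcription; above each, its log2 fold change, rFGF21 over PBS, with its SE. The change was 1.01 for Casp4, the middle gene, 0.68 for Casp12 and 0.37 for Casp1, of which that of Casp4 passed the test.

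Casp4 had 17.5, 19.8, 15.3 and 23.1 CPM in rFGF21 libraries 1, 2, 3 and 5, against 8.83, 11.6, 8.96 and 8.22 CPM in PBS libraries 1, 2, 4 and 5. The lowest rFGF21 library stood above the highest PBS library, and library 5 was the highest of the rFGF21 group. The means were 18.9 ± 3.3 CPM in rFGF21 and 9.41 ± 1.52 CPM in PBS libraries (SD, n = 4 each), a log2 fold change of 1.01 ± 0.15 (SE) with an edgeR adjusted p = 0.0103. By p, Casp4 ranked at place 82 of the 18315 genes. The values rest on 1117 to 1744 reads per rFGF21 library and 524 to 740 per PBS library. The call held whichever library was left out, with an edgeR adjusted p of 0.0150 to 0.0391. It was lost by limma on log2(RPKM + 1), at an adjusted p of 0.0662, and on log2(RPKM + 0.1), at 0.0563, unless genes with a mean RPKM under 1 were left out (0.0218).

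Casp12 had 38.3, 49.6, 37.1 and 52.7 CPM in rFGF21 libraries 1, 2, 3 and 5, against 28.0, 34.6, 21.5 and 26.9 CPM in PBS libraries 1, 2, 4 and 5. The rFGF21 libraries again all stood above the PBS libraries. They fell in the same order as for Casp4, 5, 2, 1 and 3 from high to low. The PBS libraries did not: from high to low they ran 2, 4, 1 and 5 for Casp4 and 2, 1, 5 and 4 for Casp12. The log2 fold change was 0.68 ± 0.16 (SE, n = 4 each) with a 95% interval of 0.33 to 1.03, and the edgeR adjusted p = 0.0510 did not pass. DESeq2 gave an adjusted p = 0.00233, and edgeR without PBS library 2 gave 0.0393. An exact two-sided permutation test of the libraries gave p = 0.0286 for Casp12, the smallest that 4 against 4 allow, and the same for Casp4 and Casp2.

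Casp1, the gene of the inflammasome protease, had the fewest reads of the members. It had 3.69, 4.46, 5.05 and 5.04 CPM in rFGF21 libraries 1, 2, 3 and 5, against 3.79, 2.37, 3.45 and 4.45 CPM in PBS libraries 1, 2, 4 and 5. The groups overlapped, since PBS libraries 1 and 5 stood above rFGF21 library 1. The log2 fold change was 0.37 ± 0.21 (SE, n = 4 each; edgeR adjusted p = 0.378), with an interval of -0.09 to 0.84 on 151 to 381 reads per library. That interval overlaps those of Casp4 and Casp12, and whether the 3 neighbours changed by different amounts was not tested.

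**Figure D3:**
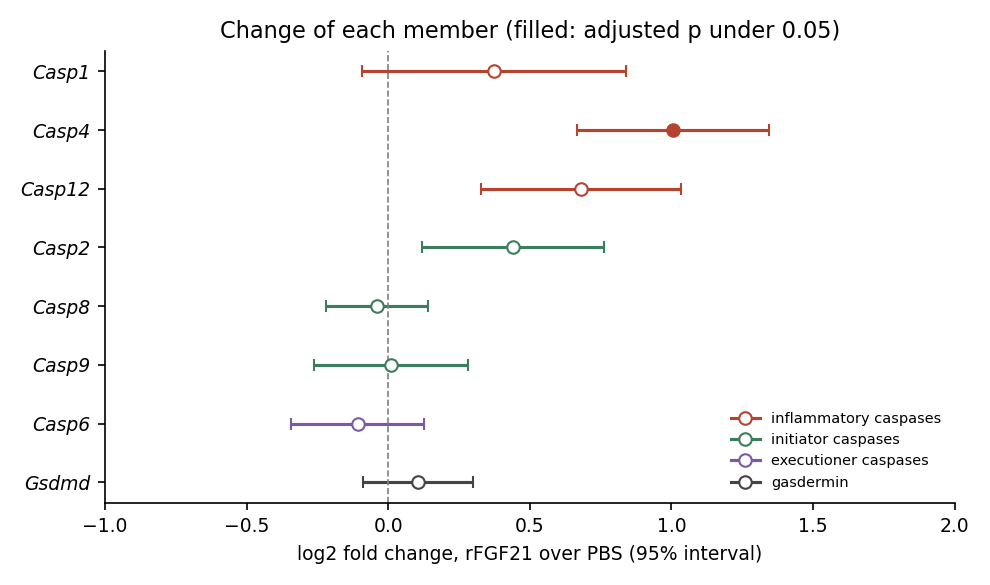
Log2 fold change of each member, rFGF21 over PBS, with its 95% interval (edgeR, 4 libraries per group); colour gives the class and a filled point an adjusted p under 0.05. Casp4 is the only filled point, at 1.01; the intervals of Casp12 and Casp2 lie above 0 without passing the adjusted threshold, and those of the remaining members include 0.

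Among the initiators, Casp2 (chromosome 6, 42264985 to 42282508) stood higher in every rFGF21 library. It had 12.9, 15.8, 14.4 and 13.3 CPM in rFGF21 libraries 1, 2, 3 and 5, against 12.1, 11.5, 7.82 and 9.998 CPM in PBS libraries 1, 2, 4 and 5. The gap between the groups was narrow, and PBS library 4 was the lowest of its group. The log2 fold change was 0.44 ± 0.15 (SE, n = 4 each; edgeR adjusted p = 0.135), and 0.33 without PBS library 4.

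Casp8 (chromosome 1, 58795374 to 58847503), the initiator of the death receptor pathway, was the steadiest member. It had 23.9, 25.2, 25.5 and 26.7 CPM in rFGF21 libraries 1, 2, 3 and 5, against 25.1, 28.0, 25.7 and 25.5 CPM in PBS libraries 1, 2, 4 and 5. The groups overlapped, and the 95% interval of the fold was 0.858 to 1.10 (log2 fold change -0.04 ± 0.08 SE, edgeR adjusted p = 0.841). Scaling by library totals turned this small difference to 0.04.

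Casp9 (chromosome 4, 141793612 to 141815976), the caspase of the apoptosome, averaged 23.1 ± 1.3 CPM in rFGF21 and 23.0 ± 3.8 CPM in PBS libraries (SD, n = 4 each). PBS library 4 was the lowest of its group at 17.6 CPM, below the 22.3 to 25.1 CPM of the rFGF21 libraries. The log2 fold change was 0.01 ± 0.12 (edgeR adjusted p = 0.977), and -0.10 without PBS library 4. A stretch of 94 exon bases of Casp9 also belongs to Cela2a, a pancreatic elastase gene on the opposite strand, which had 62 to 99 reads per library against 1029 to 1832 for Casp9; whether counting used strand is not known from the sources used here.

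Casp6 (chromosome 3, 129901425 to 129914103), the executioner among the members, averaged 24.4 ± 1.9 CPM in rFGF21 and 26.2 ± 3.2 CPM in PBS libraries (SD, n = 4 each). Its log2 fold change was -0.11 ± 0.11 (edgeR adjusted p = 0.644), with rFGF21 libraries between 22.2 and 26.6 CPM and PBS libraries between 23.6 and 30.0 CPM.

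Gsdmd (ENSMUSG00000022575, chromosome 15, 75862327 to 75867408), the substrate that caspase-1 and caspase-11 share, had 67.7, 82.1, 73.2 and 65.8 CPM in rFGF21 libraries 1, 2, 3 and 5, against 69.6, 68.0, 64.5 and 66.3 CPM in PBS libraries 1, 2, 4 and 5. The groups overlapped, and rFGF21 library 2 was the highest. The log2 fold change was 0.11 ± 0.09 (SE, n = 4 each; edgeR adjusted p = 0.566), a fold of 1.08 with a 95% interval of 0.941 to 1.23.

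Per length, Gsdmd was the most abundant member in both groups, at 31.2 ± 2.3 RPKM in rFGF21 and 27.4 ± 2.0 RPKM in PBS libraries (SD, n = 4 each). In rFGF21 libraries it was followed by Casp12 at 11.9 ± 2.4 RPKM, Casp8 at 9.03 ± 0.72, Casp4 at 5.27 ± 1.11, Casp9 at 4.58 ± 0.23, Casp6 at 4.49 ± 0.45, Casp1 at 3.14 ± 0.50 and Casp2 at 2.05 ± 0.14 RPKM. In PBS libraries the order was Casp8 at 8.77 ± 0.73 RPKM, Casp12 at 7.06 ± 1.64, Casp6 at 4.58 ± 0.73, Casp9 at 4.32 ± 0.87, Casp4 at 2.47 ± 0.48, Casp1 at 2.27 ± 0.53 and Casp2 at 1.44 ± 0.32 RPKM. Neighbours whose library ranges overlapped were Casp12 with Casp8, Casp4 with Casp9 and Casp9 with Casp6 in rFGF21 libraries, and in PBS libraries every neighbouring pair from Casp8 down to Casp2. Of these, Casp12 stood above Casp8 in 4 of 4 rFGF21 libraries, and in 4 of 4 PBS libraries Casp8 stood above Casp12, Casp12 above Casp6 and Casp9 above Casp4. The order of the other overlapping pairs was not the same in every library. The order rests on the exon length given to each gene, which covers all annotated transcripts and ran from 1497 bases for Casp1 to 7057 bases for Casp2; the authors' FPKM values, not used here, rest on other lengths and place Casp1 below Casp2.

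Levels set against each other inside a library do not depend on how libraries are scaled. The RPKM of Casp12 over that of Casp8 was 1.21, 1.48, 1.09 and 1.49 in rFGF21 libraries 1, 2, 3 and 5, against 0.842, 0.929, 0.630 and 0.795 in PBS libraries 1, 2, 4 and 5. Casp12 thus exceeded Casp8 in each rFGF21 library and was below it in each PBS library. The summed RPKM of the 3 inflammatory caspases over that of the 3 initiators ran from 1.09 to 1.51 in rFGF21 and from 0.772 to 0.838 in PBS libraries, again without overlap. The inflammatory sum itself was 17.3 to 25.4 RPKM in rFGF21 and 9.48 to 13.9 RPKM in PBS libraries, and the initiator sum was 14.7 to 16.8 RPKM in rFGF21 and 12.3 to 16.6 RPKM in PBS libraries. Casp4 over the executioner Casp6 was 0.867 to 1.38 in rFGF21 and 0.443 to 0.632 in PBS libraries. Casp4 made up 24.0% to 27.5% of the inflammatory sum in rFGF21 and 18.2% to 23.4% in PBS libraries. Gsdmd stood 4.46 to 7.47 times above Casp4 in rFGF21 and 9.12 to 12.6 times above it in PBS libraries. Casp4 over Casp1 overlapped between the groups, at 1.22 to 1.91 in rFGF21 and 0.745 to 1.98 in PBS libraries. These ratios describe the libraries and were not tested, since the genes that moved were known when the ratios were formed.

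The 2 genes whose profile lay closest to that of Casp4 over the 8 libraries were Tnfaip2, a gene induced by tumour necrosis factor, and Fchsd1. Closeness was the root mean square difference of log2 CPM, each gene centred on its own mean, which was 0.126 for Tnfaip2 and 0.136 for Fchsd1. Tnfaip2 averaged 57.8 CPM in rFGF21 and 28.2 CPM in PBS libraries, a log2 fold change of 1.03 ± 0.14 (SE; edgeR adjusted p = 0.00652). Fchsd1 averaged 15.6 CPM in rFGF21 and 8.58 CPM in PBS libraries. Since Casp4 changed, genes close to it by this measure were bound to change too.

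Upstream of the inflammatory caspases stand the sensors that recruit them, NOD-like receptors, AIM2 and pyrin with the adaptor Pycard (ASC), and the guanylate-binding proteins that expose bacterial lipopolysaccharide. Of 18 tested genes of this list, edgeR called 0 higher and 1 lower. The median log2 fold change was 0.31, against 0.00 over all genes tested. At an unadjusted p under 0.05, 2 were higher and 2 lower, and DESeq2 called 1 higher and 2 lower. The shares over all genes stand beside this list and those that follow. By edgeR, 1.15% were called higher and 1.67% lower, and 18.8% had an unadjusted p under 0.05 in either direction. DESeq2 called 4.45% of all genes higher and 5.21% lower. Nlrp6, a sensor best known from the gut epithelium, fell: it had 81.1, 82.5, 85.1 and 92.1 CPM in rFGF21 libraries 1, 2, 3 and 5, against 165, 132, 195 and 148 CPM in PBS libraries 1, 2, 4 and 5. The groups were far apart, with a log2 fold change of -0.91 ± 0.12 (SE, n = 4 each; edgeR adjusted p = 0.00652) that kept its call whichever library was left out. It is the most abundant gene of the list by reads and the 1 with the largest change.

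Downstream, the list of cytokines that caspase-1 matures, their antagonists, other pore and membrane rupture proteins and the alarmins Il1a and Hmgb1, which dying cells release, had 0 of 8 tested genes higher and 0 lower by edgeR and by DESeq2, with 1 higher and 1 lower at an unadjusted p under 0.05 and a median log2 fold change of -0.04. Il1rn, the interleukin-1 receptor antagonist, was 0.58 ± 0.23 higher (edgeR adjusted p = 0.212), while Il18 (-0.37 ± 0.16, edgeR adjusted p = 0.249) and Il1a (-0.54 ± 0.25, edgeR adjusted p = 0.282) were lower, all without passing. These 3 have the smallest p of the list.

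The complexes that activate the initiators come next. Of 15 death receptor genes, edgeR called 0, 1 was higher at an unadjusted p under 0.05 and DESeq2 called 1, Tnfaip3. Tnfaip3, the ubiquitin-editing brake on TNF signalling, averaged 40.8 ± 4.8 CPM in rFGF21 and 24.9 ± 9.0 CPM in PBS libraries (edgeR adjusted p = 0.108); Rnf31 (0.26 ± 0.13) and Fas (-0.20 ± 0.11) had the next smallest p. Of 11 apoptosome and PIDDosome genes, edgeR called 0, with 1 higher and 3 lower at an unadjusted p under 0.05. DESeq2 called Apaf1 higher and Cradd lower. Over all genes tested, 18.8% had an unadjusted p under 0.05 in either direction, and DESeq2 called 4.45% higher and 5.21% lower. Apaf1, the scaffold of the apoptosome, averaged 11.1 ± 2.3 CPM in rFGF21 and 7.93 ± 0.61 CPM in PBS libraries (log2 fold change 0.49 ± 0.15, edgeR adjusted p = 0.121). Cradd, an adaptor that brings caspase-2 to the PIDDosome, averaged 6.81 ± 1.02 CPM in rFGF21 and 9.86 ± 1.88 CPM in PBS libraries (-0.53 ± 0.17), and cytochrome c (Cycs) 86.5 ± 6.0 CPM and 112 ± 22 CPM (-0.38 ± 0.13, edgeR adjusted p = 0.148). The values of Cradd and Cycs were thus on the low side after rFGF21 while those of Casp2 and Apaf1 were on the high side; none of the 4 passed by edgeR, and Cradd and Apaf1 passed by DESeq2.

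The list of caspase inhibitors also holds genes that do not inhibit caspases themselves, such as Xaf1, an antagonist of XIAP. Dffa, which holds back the apoptotic DNase and is cut by caspases, is another. Serpinb9, also listed, is best known as an inhibitor of granzyme B. Of the list's 10 genes, edgeR called 1 higher and 0 lower. At an unadjusted p under 0.05, 3 were higher (Birc2, Birc3 and Serpinb9) and 1 lower (Dffa), against 18.8% of all genes in either direction. DESeq2 called 2 higher and 0 lower, against 4.45% and 5.21% of all genes. The median log2 fold change was 0.14. Birc2, which encodes the ubiquitin ligase cIAP1 that keeps RIPK1 from activating caspase-8, rose. It had 68.8, 73.7, 69.3 and 64.8 CPM in rFGF21 libraries 1, 2, 3 and 5, against 47.3, 46.7, 33.6 and 55.9 CPM in PBS libraries 1, 2, 4 and 5 (log2 fold change 0.59 ± 0.13 SE, n = 4 each; edgeR adjusted p = 0.0457). The groups did not overlap, but in 6 of 8 fits with a library removed the call was lost, at an edgeR adjusted p of 0.0895 to 0.118, and it held without PBS library 4 or 5. Of 14 tested genes among other caspases and caspase substrates, edgeR called 0, 4 were higher and 1 lower at an unadjusted p under 0.05, and DESeq2 called 1, Krt18. Krt18 and Krt8, the hepatocyte keratins, were 0.51 ± 0.17 and 0.47 ± 0.18 higher (edgeR adjusted p = 0.138 and 0.199), and Lmnb2, lamin B2, was lower by -0.38 ± 0.13 (edgeR adjusted p = 0.151).

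Of 7 transcription factors known to act at caspase or gasdermin genes, 1 was higher and 0 lower. At an unadjusted p under 0.05, 3 were higher (Irf1, Nfkb1 and Rela) and 0 lower, against 18.8% of all genes in either direction. DESeq2 called 2 higher, Irf1 and Nfkb1, against 4.45% of all genes. Nfkb1 had a log2 fold change of 0.42 ± 0.10 (SE), at an edgeR adjusted p = 0.0505 that did not pass. Irf1, which is required for full Casp1 and Casp4 expression in mouse macrophages, averaged 55.3 ± 7.5 CPM in rFGF21 and 34.1 ± 3.7 CPM in PBS libraries (SD, n = 4 each; edgeR adjusted p = 0.0160). Without rFGF21 library 1 or 5 its edgeR adjusted p was 0.0581 or 0.0534, and limma gave 0.0884 on log2(RPKM + 1) and 0.0791 on log2(RPKM + 0.1). Irf2, an activator of Gsdmd, had a log2 fold change of 0.03 ± 0.18 (edgeR adjusted p = 0.950); it was named after its value was seen.

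**Figure D4:**
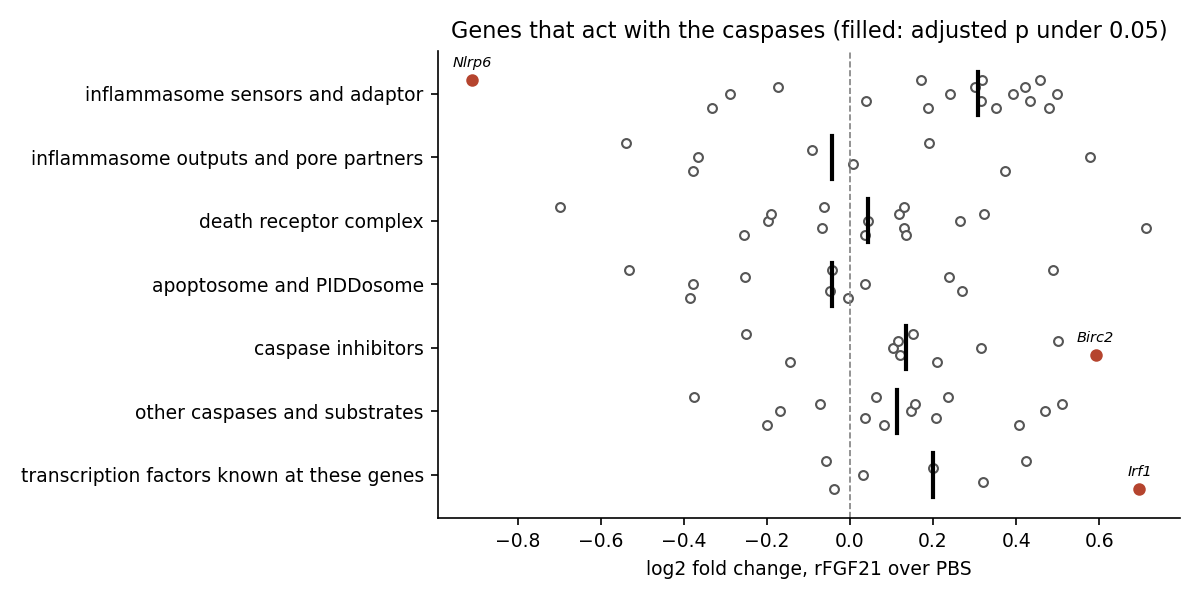
Log2 fold change, rFGF21 over PBS, of each tested gene in 7 lists of genes that act with the caspases (1 point per gene, height within a row is for legibility); black bars mark list medians and filled points an adjusted p under 0.05. Nlrp6 at -0.91, Birc2 at 0.59 and Irf1 at 0.70 are the only filled points, and the sensor list has the highest median, 0.31.

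Several members are strongly expressed in immune cells or bile duct cells, so marker lists were read in the same libraries. None of the 80 tested markers of cell types, RNA quality and blood was called by edgeR. At an unadjusted p under 0.05, 18 were higher and 4 lower, against 18.8% of all genes in either direction. DESeq2 called 10 higher and 0 lower, against 4.45% and 5.21% of all genes. The 10 were Ccr2, Cd8a, Col1a1, Col1a2, Krt19, Sox9, Fos, Hba-a1, Hbb-bs and Hbb-bt. Of the 7 cholangiocyte markers, 5 were higher at an unadjusted p under 0.05 and 0 lower. For 8 monocyte and dendritic cell markers, 7 of them with a log2 fold change above 0, the summed level did not overlap between the groups. It was 68.1 to 88.8 CPM in rFGF21 and 47.0 to 61.6 CPM in PBS libraries. Most of it came from Ccr2 (means 36.6 CPM in rFGF21 and 22.25 CPM in PBS libraries) and Plac8 (28.5 and 20.2 CPM). The log2 fold change of Ly6c2 was 0.05 and that of Clec9a was -0.06. For 8 neutrophil markers, of which 7 were tested and 7 had a log2 fold change above 0 with a median of 0.69, the summed level was 14.2 to 27.8 CPM in rFGF21 and 12.2 to 19.4 CPM in PBS libraries. For 7 cholangiocyte markers, 7 of them above 0 with a median of 0.62, it was 238 to 369 CPM in rFGF21 and 171 to 265 CPM in PBS libraries. For 10 Kupffer cell and macrophage markers, 4 of them above 0, it was 675 to 1068 CPM in rFGF21 and 810 to 1227 CPM in PBS libraries, with a median log2 fold change of -0.37. For 8 stellate cell markers, 7 of them above 0, it was 583 to 768 CPM in rFGF21 and 483 to 619 CPM in PBS libraries. The groups overlapped in the neutrophil, cholangiocyte, Kupffer cell and stellate cell sums. They also overlapped for T and NK cells (10 to 11.8 CPM in rFGF21 and 9.92 to 10.6 CPM in PBS libraries). The same held for B and plasma cells (3.68 to 12.0 CPM in rFGF21 and 3.32 to 10.1 CPM in PBS libraries), for endothelial cells (174 to 259 CPM in rFGF21 and 158 to 277 CPM in PBS libraries), and for hepatocytes (64800 to 82720 CPM in rFGF21 and 71040 to 88130 CPM in PBS libraries). RNA quality and blood genes summed to 16530 to 19800 CPM in rFGF21 and 19190 to 39600 CPM in PBS libraries, a sum made up mostly of mitochondrial reads. Of these 10 genes, 4 were higher at an unadjusted p under 0.05, the haemoglobin genes Hbb-bs, Hbb-bt and Hba-a1 and the immediate early gene Fos, and DESeq2 called the same 4 higher; 2 heat shock genes, Hspa1a and Hspa1b, were lower at an unadjusted p under 0.05. None of these markers was at 0 in all libraries. The part of these cell types, of blood and of RNA quality in the Casp4 and Casp12 values was not tested.

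**Figure D5:**
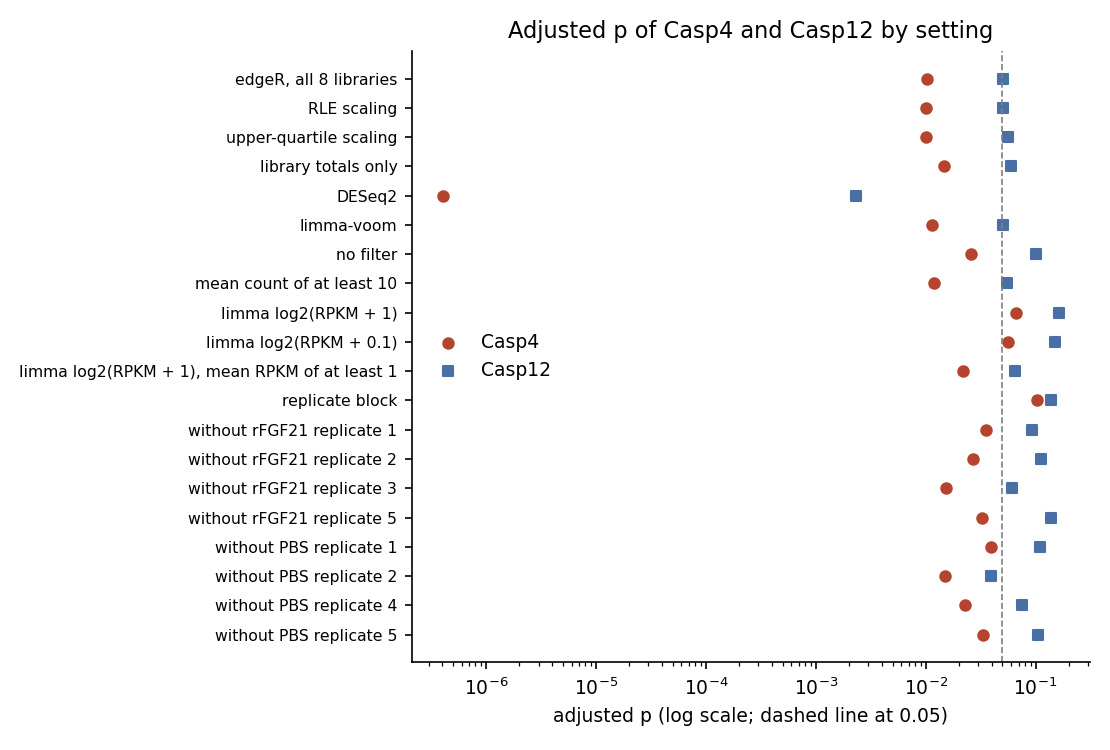
Adjusted p of Casp4 (circles) and Casp12 (squares) on a log axis under each way of testing, from all 8 libraries with edgeR at the top to the fits that leave out 1 library at the bottom; the dashed line marks 0.05. Casp4 lies left of the line except with a replicate block (0.103) and with limma on RPKM without a filter (0.0662 and 0.0563), and Casp12 lies on or right of it except with DESeq2 (0.00233) and without PBS library 2 (0.0393).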

How the data were processed

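The deposited table holds raw read counts for each gene, per the file headers, in 10 columns; 8 of these also have an FPKM column, and those 8 count columns were analysed. The other 2 count columns were not used here. The numbers in the column names do not match those in the sample labels, and columns were tied to groups alone. For that reason the authors' FPKM values were not used beside the counts, although the levels and 3 alternatives had been planned on them. RPKM was computed instead, from the counts, the library totals and the union of exons in GENCODE M21. The submitters' processing notes name Bowtie 0.12.2 and mm8, whereas coordinates in the table are those of GRCm38 (30177 identifiers are in GENCODE M21, 87.3% of them with identical coordinates). How reads were counted, by strand or not, and how shared reads were treated, is not known from the sources used here, which leaves reads of similar caspase paralogs uncertain.

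Counts were tested with edgeR 4.0.16 in R 4.3.3 (filterByExpr, TMM, quasi-likelihood F test, two-sided, no covariates), and p-values were adjusted by Benjamini-Hochberg over 18315 genes. SE were derived from the F statistic, and 95% intervals from the SE and the fit's degrees of freedom. Members were also compared with an exact two-sided permutation test of log2(CPM + 0.1) (scipy 1.17.1). Alternatives were DESeq2 1.42.0, limma-voom and limma on log2(RPKM + pseudocount) (limma 3.58.1), other scalings and filters, a replicate block and leaving out each library. The fits were tested on simulated data. All library pairs differed by more than sampling noise, with a chi-square per degree of freedom of 47.1 or more.

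Named were all 8 members; of each list the genes called, or otherwise up to 3 with the smallest p; and the 2 genes closest to Casp4. The members and lists were chosen with earlier results of these data known. Promoter windows run from 250 bases before to 50 bases after RefSeq's starts, and 7 of 8 members matched. Counting floors cover counting error only.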

Additional observations from a re-analysis of the deposited data

How the results depend on the processing

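The number of members called higher was 1 in the fit reported and in 14 of 19 alternatives. It was 2 with DESeq2, and 0 with limma on log2(RPKM + 1), with limma on log2(RPKM + 0.1) and with a replicate block; with 1 library left out it ranged from 1 to 2, being 2 without PBS library 2. No alternative called a member lower. The block used column numbers, 3 of which occur in both groups. Deviations of same-numbered libraries from their group means correlated at 0.138, -0.132 and -0.214. So few values cannot settle whether the numbers pair the libraries. With the block the edgeR adjusted p of Casp4 was 0.103 at a log2 change of 1.08, and that of Casp12 0.139. That of Nlrp6 was 0.0818, that of Irf1 0.184 and that of Birc2 0.174. Of all genes tested with the block, 7 were higher and 5 lower. Over all genes, 210 were higher and 306 lower in the fit reported, 703 and 824 with DESeq2, 85 and 113 without a filter, 40 and 44 with limma on log2(RPKM + 1), and 51 and 49 on log2(RPKM + 0.1). Scaling by library totals left 178 lower, with 59.1% of calls higher in place of 40.7%, and limma with a mean RPKM of at least 1 left 162 lower, with 59.5% of calls higher. Leaving out 1 library gave 51 to 198 higher and 80 to 288 lower genes. The small difference of Casp8 reversed to 0.043 with library totals, 0.0389 with limma on log2(RPKM + 1) with or without the filter, and 0.0429 on log2(RPKM + 0.1). That of Casp9 reversed to -0.138 with the block, -0.0314 without rFGF21 library 3 and -0.0959 without PBS library 4, in a range of -0.0959 to 0.0805 with 1 library left out; the cause was not tested. Birc2 kept its call in 9 of 19 alternatives, Irf1 in 14 and Nlrp6 in 18. Casp1 rests on the fewest reads of the members, at 151 to 381 per library, and its interval leaves room for no change and for a rise of 1.79-fold.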
